A study of Mus musculus with 39 samples.

Results

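Among 39 cells taken singly from the livers of adult mice, 7 carried several genes of the mesothelium at a high level, and these mesothelial-marker cells are described here. They were chosen by measured values. A cell was taken when 3 or more of 9 mesothelial genes (Msln, Upk3b, Upk1b, Lrrn4, Wt1, Gpm6a, Muc16, Igfbp6 and Nkain4) reached 100 CPM. CPM is a count scaled to the library total and not corrected for transcript length. Here that scale was inferred from the deposited values, and their sums differed between cells, as described under processing. Muc16 was not analysed here, so 8 genes decided. Cells 5, 6, 7, 8, 10, 35 and 37 met the rule, 17.9% of the 39 cells (exact Clopper-Pearson 95% interval 7.54% to 33.5%, which covers counting error only). All 39 cells belong to 1 group in the labels. They were GFP-positive cells from mice with an inducible Cre under Krt19 (Krt19CreERT) and a GFP reporter (Rosa26CAG-EGFP), sorted and then picked singly into lysis buffer. By this design the label was meant for cells in which Krt19 drove the Cre, and their descendants. Whether every sorted cell was of that lineage was not tested. The labels name no animal, induction schedule, sort or plate, and cells are not replicates, so each comparison with the 32 other cells is a description with no test, p-value or standard error.

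The mesothelium is the flat epithelial sheet that covers the liver and the walls of the body cavities. Its cells carry keratins and cell junctions like other epithelia, but they derive from mesoderm, express the transcription factor Wt1, and can take on features of fibroblasts after injury. Fibroblasts of the liver capsule and portal tracts secrete fibrillar collagens and decorin. Hepatic stellate cells, the vitamin A-storing pericytes of the sinusoids, make collagen too when activated, and bile duct epithelium is the usual site of Krt19 in the adult liver.

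The number of reads behind a cell is not given, since the table holds no counts. The most common low value in a cell, if it stands for 1 read, gives a rough estimate. It was 41.5 reads per CPM in cell 6, 22.0 in cell 10, 20.3 in cell 8 and 6.70 in cell 35. Its median was 17.1 in the members and 10.0 in the others. Only 38.6% to 42.6% of low values in a member lay near whole multiples of that step. Genes at 100 CPM or more numbered 1166 in cell 5, 1445 in cell 6, 1203 in cell 7, 1415 in cell 8, 1454 in cell 10, 741 in cell 35 and 1213 in cell 37, against a median of 901 in the other cells (range 581 to 1474). Over genes at 100 CPM in at least 20 of the 39 cells, the members lay 0.82 higher in median difference of mean log2(CPM + 1), while the median over all 10061 genes was 0.06. Against all other cells, broadly expressed genes were thus displaced upward in the members. Some list medians below are of that size or smaller, such as 0.94 for complement and acute phase genes and 0.35 for stellate and mural genes. The part of this displacement in any gene's value or list's median was not tested.

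The rule genes were spread unevenly over the 7 cells. The number at 100 CPM was 6 in cell 5, 5 in cell 6, 7 in cell 7, 8 in cell 8, 5 in cell 10, 5 in cell 35 and 3 in cell 37. Msln, which encodes the surface protein mesothelin, had 3189, 444, 62.4, 107, 0, 1.04 and 0.560 CPM in cells 5, 6, 7, 8, 10, 35 and 37, the order used for every list of 7 values below. The gene named after this tissue was therefore under 100 CPM in 4 of the 7 cells. Upk3b, a uroplakin of urothelium and mesothelium, had 1169, 21.9, 637, 953, 912, 529 and 0.080 CPM. Its relative Upk1b, a tetraspanin, had 394, 21.7, 728, 1652, 49.6, 172 and 0 CPM. Gpm6a, a membrane glycoprotein known from neurons, had 1684, 981, 557, 4122, 4.19, 4190 and 0.365 CPM. All 3 genes were under 1 CPM in cell 37, which was chosen without them and without Msln.

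The remaining rule genes joined cell 37 to the others. Lrrn4, a leucine-rich repeat membrane protein, had 407, 1133, 2531, 1299, 357, 0.769 and 2937 CPM. Wt1, the Wilms tumour transcription factor, had 48.2, 388, 453, 629, 341, 42.6 and 150 CPM, and the highest value among the 32 other cells was 29.7 CPM. Nkain4, a small membrane protein that interacts with the sodium pump, had 493, 18.1, 1032, 608, 221, 1842 and 288 CPM, and Igfbp6, a binding protein of insulin-like growth factors, 63.7, 281, 713, 541, 864, 3477 and 53.1 CPM. For Wt1, Nkain4 and Igfbp6 the lowest member lay above the highest other cell. These levels made the group and carry no weight of their own. At the edge of the rule, cell 37 was inside with Lrrn4, Nkain4 and Wt1. Cell 23 was outside with 2 genes, Msln at 1179 CPM and Lrrn4 at 228 CPM, and cells 18 and 19 had 1 each. No rule gene reached 100 CPM in the other 29 cells.

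**Figure D1:**
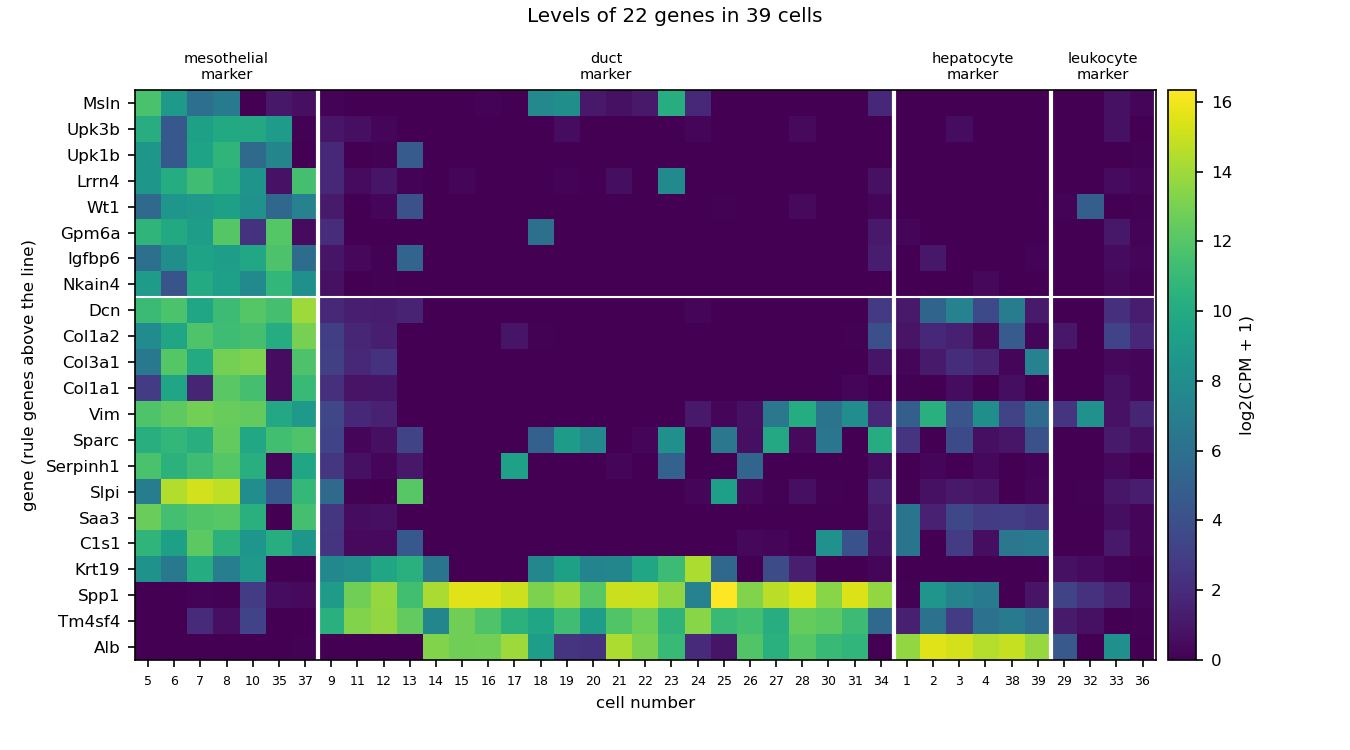
Levels, as log2(CPM + 1), of the 8 rule genes (above the line) and 14 other genes (below it) in each of the 39 cells, ordered by marker set along the horizontal axis. The rule genes fill the 7 columns at the left with gaps, Msln being under 100 CPM in 4 of them, while Dcn and Col1a2 reach 100 CPM in all 7.

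The upstream sequence of 4 rule genes was at hand, and part of it is shown because these genes chose the members. In the 250 bases before the start site of RefSeq transcripts (assembly GRCm38.p6), Lrrn4, Upk3b, Gpm6a and Igfbp6 had an entry. The 3 that hold the letters GGAATG on either strand, the core of the motif bound by TEAD factors of the Hippo pathway, are printed in the direction of transcription with that match in capitals.
Lrrn4, chr2:132880863-132881112, minus strand: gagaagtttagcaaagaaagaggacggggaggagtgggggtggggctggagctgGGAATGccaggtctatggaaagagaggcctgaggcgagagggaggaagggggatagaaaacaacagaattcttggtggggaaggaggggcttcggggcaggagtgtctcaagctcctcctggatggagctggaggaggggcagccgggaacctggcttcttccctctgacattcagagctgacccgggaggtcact
Upk3b, chr5:136038246-136038495, plus strand: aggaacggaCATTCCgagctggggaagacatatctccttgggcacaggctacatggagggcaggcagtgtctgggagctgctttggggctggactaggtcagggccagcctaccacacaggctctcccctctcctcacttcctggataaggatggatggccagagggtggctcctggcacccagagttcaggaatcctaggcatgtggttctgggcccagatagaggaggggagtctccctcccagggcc
Gpm6a, chr8:54779184-54779433, plus strand: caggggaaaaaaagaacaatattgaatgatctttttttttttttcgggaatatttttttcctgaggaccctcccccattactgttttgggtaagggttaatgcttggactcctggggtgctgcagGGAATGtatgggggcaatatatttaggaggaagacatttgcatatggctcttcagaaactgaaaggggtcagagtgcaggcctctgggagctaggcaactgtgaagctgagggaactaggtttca
The match begins 196 bases before the start in Lrrn4, 241 bases before it in Upk3b (on the opposite strand) and 125 bases before it in Gpm6a, at 1 of its 2 start sites. The same letters occur in 12.6% of all 32851 promoters of that length, and in 2 of the 14 leading genes described below that had an entry, C1s1 and Col3a1. Other motifs searched were TATAAA (12.4% of promoters, and Gpm6a and Igfbp6 here), CCAAT (33.8%, and Igfbp6 here), GCGGGGGCG (2.57%) and TGANTCA (6.75%), the last pair in none of the 4. A match of letters is a description of these windows and shows no binding.

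Mesothelial genes that the rule did not use were high in the same cells. Of 16 measured genes of that list, 15 were higher in the members by 2 or more in mean log2(CPM + 1), which is 4-fold on that scale and is what "higher" means below, and none was lower by as much. Over all 10061 genes 11.4% were higher and 2.54% lower by that measure. The list's median difference was 5.45, beside 0.06 for all genes. Between 4 and 13 of its genes reached 100 CPM in a member, and at most 2 in any other cell. Gas1, a growth arrest protein tethered to the membrane, had 1117, 156, 1927, 449, 555, 0.149 and 939 CPM and at most 1.10 CPM in the 32 others. Pdpn, the mucin-like podoplanin of mesothelium and lymphatic vessels, had 293, 665, 843, 257, 950, 10.7 and 133 CPM. Gpc3, a heparan sulphate proteoglycan of the cell surface, had 2160, 85.8, 137, 335, 266, 389 and 0.240 CPM. For Gas1 and Pdpn the exception was cell 35, and for Gpc3 it was cell 37, with cell 6 just under 100 CPM.

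Several of these genes are typical products of serosal surfaces. Aldh1a2, which makes retinoic acid and marks mesothelium in the embryo, reached 100 CPM in cells 5, 7, 10 and 37 and stayed at or under 0.736 CPM in the 32 others. Pkhd1l1, a relative of fibrocystin, reached it in cells 5, 8, 10 and 37, and every member lay above every other cell. Dmkn, a secreted epithelial protein, reached 100 CPM in cells 5 to 8 and Cldn15, a claudin of tight junctions, in cells 5, 8 and 10. Prg4, the lubricant lubricin, had 1092 CPM in cell 5, 331 CPM in cell 7 and 993 CPM in cell 35. Efemp1, a fibulin of the matrix, reached 100 CPM in cells 5, 6, 8 and 37, and Igfbp5, another growth factor binding protein, in cells 5, 7, 8 and 35, with 18454 CPM in cell 7. Rspo1, a secreted enhancer of Wnt signalling, reached 100 CPM in cells 7 and 8 only. Cav1, encoding the coat protein of caveolae, reached it in 5 members and 2 other cells. No cell held the whole list. The single gene of the 16 that was not higher was Bcam, a laminin receptor, with a difference of 1.70.

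Fibroblast genes were present in the same cells, not in a separate part of the group. Of 17 measured fibroblast genes 13 were higher in the members and 1, Fn1, was lower, with a median difference of 5.36. The number at 100 CPM was 7, 7, 8, 10, 11, 6 and 12, so that all 7 members had at least 3 (exact 95% interval 59.0% to 100%), as did 2 of the 32 other cells (0.766% to 20.8%). Dcn, encoding decorin, a proteoglycan that coats collagen fibrils, had 2230, 3367, 811, 2361, 4170, 2937 and 15486 CPM. The highest other cell had 153 CPM, and the difference was 10.40, the largest among the leading genes. Col1a2, a chain of collagen I, had 236, 793, 3621, 2472, 2964, 1094 and 8106 CPM, against at most 24.9 CPM elsewhere, and a difference of 9.90. Both genes were thus above 200 CPM in each member and did not overlap with the other cells.

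The other collagen genes divided the members. Col3a1, the chain of collagen III, had 95.9, 4121, 1033, 7773, 9116, 0.447 and 3555 CPM, with a difference of 8.90. Col1a1, the partner chain of Col1a2, had 6.14, 829, 2.16, 4637, 2996, 0.447 and 2114 CPM. In cells 5, 7 and 35 Col1a2 was thus above 100 CPM and Col1a1 under 10 CPM, while in cells 6, 8, 10 and 37 both were above 100 CPM. Col5a1, of collagen V, was above every other cell in every member, but its values spanned 0.447 CPM (cell 35) to 641 CPM (cell 7), and the lowest rests on a level near 0. Its partner Col5a2 was highest in cells 35 and 37, at 5945 and 1821 CPM, and was listed at 0 in cells 7 and 8. Col6a1 and Col6a2, of collagen VI, reached 100 CPM in 4 and 3 members and in no other cell. Collagen genes of separate chains were therefore not high in the same members throughout. Whether a low value of one chain reflects missed transcripts was not tested.

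Matrix proteins around the fibrils followed. Fbln1, a fibulin, had 324, 272, 2910, 135, 650, 4.17 and 246 CPM and a difference of 7.53. Tnxb, the matrix protein tenascin-X, had 54.7, 204, 4.90, 1372, 1059, 281 and 885 CPM and a difference of 7.39. Loxl1, which crosslinks elastin, reached 100 CPM in 4 members. Fn1, encoding fibronectin, was at 1264 CPM in cell 10 and 7234 CPM in cell 37, but it was at or under 24.7 CPM in the other members while 17 of the 32 other cells reached 100 CPM. Its difference of -2.02 turned to 2.66 within cells 5 to 13 and to 1.88 within cells 33 to 37. Receptors and surface markers of fibroblasts were scarce. Pdgfra, the platelet-derived growth factor receptor of many fibroblasts, reached 100 CPM in cell 37 alone, at 381 CPM, Thy1 in cell 5 alone, at 256 CPM, and Entpd2, a nucleotidase of portal fibroblasts, in none. Cd34 reached it in 4 members (256 to 908 CPM) and had at most 1.23 CPM in the other cells.

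Enzymes and chaperones that fold and process collagen were high in most members. Of 16 measured genes 9 were higher and none lower, with a median difference of 2.30. Serpinh1, the collagen chaperone of the endoplasmic reticulum, had 3235, 1449, 2433, 4260, 1245, 0.149 and 823 CPM and a difference of 8.56. Sparc, a matrix protein that binds collagen, had 1228, 1784, 1211, 5572, 855, 2698 and 3743 CPM and a difference of 8.29, but it also reached 100 CPM in 5 duct-marker cells. Cell 35 thus had Sparc, Dcn and Col1a2 without Serpinh1. Pcolce, an enhancer of procollagen cleavage, reached 100 CPM in 4 members and Loxl2, a collagen crosslinking enzyme, in 4. Cell 6 held the most genes of the list at 100 CPM, 10, with Fkbp10, Fkbp9 and Fkbp7, prolyl isomerases of the secretory pathway, at 335, 593 and 732 CPM. In cell 35 only 1 gene of the list, Sparc, reached 100 CPM. Among 14 basement membrane genes 5 were higher, led by Hspg2, the proteoglycan perlecan, with 451, 751, 197, 118, 1544, 69.2 and 329 CPM. Col4a1, the basement membrane collagen, was lower, being under 100 CPM in all 7.

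**Figure D2:**
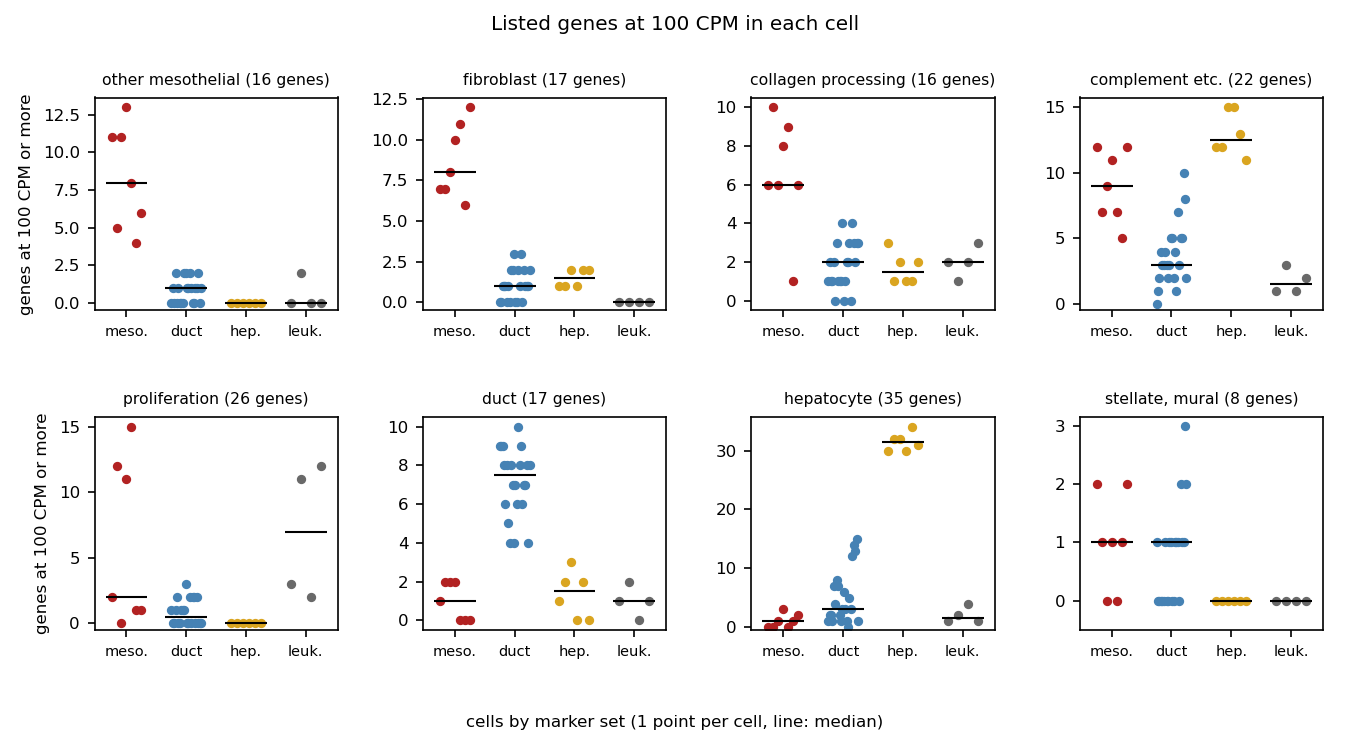
Number of genes at 100 CPM or more in each cell for 8 gene lists, with 1 point per cell, cells grouped by marker set and the line at the median. The 7 mesothelial-marker cells have 4 to 13 of the other mesothelial genes and 6 to 12 fibroblast genes, and at most 2 duct and 2 stellate or mural genes.

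Of 18 listed genes of stellate and mural cells 8 were measured, and at most 2 reached 100 CPM in a member. Pdgfrb, Des and Tagln were among those not measured. Higher were 2 (Acta2 and Ecm1), 25% beside 11.4% of all genes, and 1 was lower (Rgs5, a pericyte gene). The median difference was 0.35. Acta2, the smooth muscle actin of activated stellate cells, had 547 CPM in cell 6, at most 27.2 CPM in the other members and at most 16.1 CPM in the 32 other cells. The summed level of the list was 0.901 to 1311 CPM in the members and 0.000179 to 6308 CPM in the others. The stellate cell markers Lrat, Reln and Ngfr, an enzyme of vitamin A storage, a secreted matrix protein and a neurotrophin receptor, were at or under 0.504 CPM in every member. Ecm1, a secreted matrix protein, was the exception, with 420, 5.16, 0.525, 529, 45.4, 188 and 108 CPM and at most 60.7 CPM elsewhere. The marker list of the group held Msln, Gpm6a, Upk3b, Dcn and Col1a2, which reached 100 CPM in 3, 5, 5, 7 and 7 members. Msln, Gpm6a and Upk3b are rule genes, and the list was chosen with earlier results of these data known. These counts are therefore no independent check of the group. Genes of mesothelium and of fibroblasts were both present in each of the 7 cells, and no cell type name is given.

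Markers of other liver cells were low in the members but not absent. Duct genes at 100 CPM numbered 0 to 2 in a member and 4 to 10 in the 22 duct-marker cells, and 10 of 17 were lower. Spp1, encoding osteopontin, had at most 6.52 CPM in a member and reached 100 CPM in 24 other cells, a difference of -9.76. Tm4sf4 and Cd24a, surface proteins of duct epithelium, had at most 8.97 and 7.04 CPM and differences of -7.78 and -4.86. Onecut2, a transcription factor of the biliary lineage, lay between 0.954 and 5.43 CPM in every member and had a difference of -5.10. The duct genes that did reach 100 CPM were Krt7 in cells 6, 7 and 8, Cldn3 in cells 6 and 8, Sox9 in cell 7 and Aqp1 in cell 5. The summed level of the 17 genes was 8.22 to 2689 CPM in the members and 26.9 to 94856 CPM in the others.

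Of 35 hepatocyte genes 24 were lower, beside 2.54% of all genes, and none was higher. That count rested largely on the 6 hepatocyte-marker cells, which were named by this list. Against them all 35 were lower (median -10.45). With these cells left out of the others, 7 were lower (median -0.58). Against the duct-marker cells 7 were lower (median -0.70), beside 2.96% of all genes. Against the leukocyte-marker cells 4 were lower and 1 was higher, beside 14.3% and 12.2%. Alb, encoding albumin, was listed at 0 in 6 members and at 0.080 CPM in cell 37, and it reached 100 CPM in 20 other cells, 13 of them duct-marker cells. Ttr and Ambp, secreted carrier proteins, had at most 0.679 and 2.85 CPM, and Ahsg, encoding fetuin-A, was listed at 0 in all 7. Cell 37 had the highest summed hepatocyte level, 16906 CPM, nearly all of it from Trf, the iron carrier transferrin, at 14771 CPM and Hp, encoding haptoglobin, at 2131 CPM. Both are also made outside hepatocytes. In the other 6 members the sum was 23.1 to 2159 CPM, beside 66036 CPM or more in each of the 6 hepatocyte-marker cells. Apoe, the lipoprotein of hepatocytes and macrophages, reached 100 CPM in cells 7 and 37 and had a difference of -3.64.

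Among blood and vessel genes the members held single genes. The endothelial list had 1 of 11 measured genes higher, a share near the 11.4% of all genes. It was Esam, an adhesion molecule at 127, 0.0482, 621, 378, 0, 921 and 0 CPM, while Cdh5, Fcgr2b and Egfl7 were listed at 0 in all 7. Pecam1 and Kdr of that list were not measured, nor were Cd68 of the macrophage list and Ptprc of the leukocyte list. No macrophage gene of 11 was higher, and Clec4f, Vsig4 and C1qb were listed at 0 in all 7, although Cd14, the endotoxin co-receptor, had 568 CPM in cell 5 and 957 CPM in cell 37. Of 7 leukocyte genes Arhgdib alone was higher (14.3%, beside 11.4% of all genes). It had 536 CPM in cell 6, 710 CPM in cell 8 and 101 CPM in cell 37. None of 10 granulocyte genes was higher, and the neutrophil genes Elane and Mpo were above 0 in cells 35 and 37 alone, at 14.0 and 17.7 CPM and at 6.16 and 5.76 CPM. Cell 36, the number between them, had a summed granulocyte level of 56375 CPM. Whether its reads entered those values was not tested. The highest summed macrophage, granulocyte and leukocyte levels in a member were 960, 202 and 710 CPM. The part of RNA from other cells in any value was not tested, and no doublet caller was run.

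Krt19, the gene of the lineage label, had 324, 96.3, 1090, 127, 457, 0 and 0 CPM. It reached 100 CPM in 4 of 7 members (exact 95% interval 18.4% to 90.1%), in 11 of the 22 duct-marker cells (28.2% to 71.8%) and in 11 of all 32 others. These intervals cover counting error only, and no difference between the shares was tested. The other keratins of simple epithelium divided the members differently. Krt18 had 150, 794, 3420, 1937, 2.45, 0.298 and 0.080 CPM, Krt8 had 0.388, 416, 2828, 4721, 0.906, 13.6 and 1.27 CPM, and Krt7 reached 100 CPM in cells 6, 7 and 8. Cells 6, 7 and 8 thus carried Krt7, Krt8 and Krt18 together, cell 10 carried Krt19 without Krt8 and Krt18, and cells 35 and 37 carried none at 100 CPM. Against the other 32 cells Krt8 and Krt18 had differences of -3.12 and -3.41, and 22 and 26 of those cells reached 100 CPM.

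Of 23 measured junction genes 3 were higher, a share near the 11.4% of all genes, and 5 were lower. Against the 22 duct-marker cells alone 2 were higher and 8 lower, with a median difference of -1.06. Cdh1, encoding E-cadherin, was at or under 0.806 CPM in every member and reached 100 CPM in 16 other cells, all of them duct-marker cells, a difference of -5.31. Epcam, Cldn4, Cldn7 and Dsp were lower too. Cdh11, a cadherin of mesenchymal cells, was at 377, 152 and 1832 CPM in cells 6, 8 and 37 and had a difference of 4.92. Ctnnb1, encoding beta-catenin, had 1603, 111, 1152, 341, 183, 65.4 and 573 CPM and a difference of 4.03. Jup, encoding plakoglobin, which joins cadherins to keratins, was at 185, 189, 1443 and 363 CPM in cells 5 to 8 and under 1 CPM in the other 3. E-cadherin was thus near 0 in cells that held beta-catenin.

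Of 14 measured genes associated with a mesenchymal state 6 were higher and 2 lower, with a median difference of 1.07. Vim, encoding the intermediate filament vimentin, had 3717, 5093, 7321, 5874, 5414, 913 and 431 CPM, reached 100 CPM in 5 other cells and had a difference of 8.63. S100a6, a calcium-binding protein, had 535, 266, 423, 360, 461, 1130 and 322 CPM and a difference of 6.14, with 8 duct-marker cells also at 100 CPM. Lgals1, encoding galectin-1, was between 372 and 8943 CPM in 5 members and under 1 CPM in cells 5 and 35. The metalloproteinase inhibitors Timp1, Timp2 and Timp3 were higher by 4.52, 5.88 and 2.32. The lower genes were Fn1, described above, and Cd44, the hyaluronan receptor, which had at most 80.5 CPM in a member and reached 100 CPM in 15 other cells, a difference of -2.34. Snai2, Zeb1 and Zeb2, transcription factors known to repress E-cadherin, were low in the members, and Snai1, Twist1 and Twist2 were not measured. Snai2 had at most 18.2 CPM, Zeb1 at most 20.1 CPM, and Zeb2 was listed at 0 in all 7. Each reached 100 CPM in 1 of the other cells.

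Complement and acute phase genes lay on both sides. Of 22 measured, 10 were higher and 4 lower, with a median difference of 0.94. C1s1, the protease that activates the classical pathway, had 1622, 621, 4817, 1456, 377, 1136 and 399 CPM and at most 305 CPM elsewhere, and its partner C1ra had 2878, 37.2, 494, 343, 84.1, 3.59 and 152 CPM. C3, the central component, had 25087, 6445, 51756, 20768, 3758, 13483 and 17011 CPM, with a median of 2095 CPM and a highest value of 9682 CPM in the other cells. It was high in every member and present in most other cells, and its difference was 4.81. Cfb, factor B of the alternative pathway, had 20187, 4610, 32470, 6626, 2262, 10.4 and 3188 CPM, a difference of 6.93. The regulators of the cascade were high as well. Cd55, which speeds decay of the convertase on the cell surface, reached 100 CPM in 5 members and no other cell, and Serping1, the C1 inhibitor, in 6 members.

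The acute phase genes separated by family member. Saa3, the serum amyloid A made outside hepatocytes, had 6170, 2854, 3817, 4335, 1318, 0 and 2941 CPM and at most 79.3 CPM elsewhere, a difference of 9.19. Saa1 and Saa2, the hepatocyte forms, had at most 0.080 and 8.49 CPM in the members, and each reached 100 CPM in the 6 hepatocyte-marker cells. These genes are near copies of each other, so the division of reads among them is uncertain. Slpi, an inhibitor of neutrophil elastase, had 123, 22598, 37589, 27746, 262, 21.5 and 1920 CPM, a difference of 9.58. Cells 6, 7 and 8 stood far above the other 4 members for Slpi, and 2 duct-marker cells also reached 100 CPM. Orm1 and Cfi, products of hepatocytes, were listed at 0 in all 7.

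The 20 leading genes outside the rule, those with the largest differences among genes at 100 CPM in at least 5 members, held 11 genes of the lists. The 9 others, Tnxb among them, covered several functions. Aebp1, a collagen-binding protein of fibroblasts, had 1272, 1337, 859, 833 and 744 CPM in cells 5 to 8 and 10, 256 CPM in cell 37 and near 0 in cell 35, with at most 2.32 CPM elsewhere. Ccdc80, a matrix protein, and Gpr133, an adhesion receptor, had at most 2.57 and 3.37 CPM in the other cells and reached 5960 and 4045 CPM in cell 37. Plxna4, a semaphorin receptor, had 2368, 106, 165, 3.83, 175, 2708 and 1432 CPM. Rarres2, encoding the chemoattractant chemerin, reached 100 CPM in all 7 members and in 5 other cells. Tmem119, a membrane protein of bone-forming cells and microglia, had 152, 57.6, 1024, 424, 1152, 0 and 422 CPM. Oasl2, an interferon-induced gene, was at 1329, 1096, 1624 and 1839 CPM in cells 5, 7, 8 and 35. Tuba1a, encoding an alpha-tubulin, reached 100 CPM in all 7, from 117 to 3735 CPM, and in 3 duct-marker cells.

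Few genes kept to the members entirely. Every member lay above every other cell for 9 genes (0.0895% of 10061), namely C1s1, Col1a2, Col5a1, Dcn, Gm20362, Igfbp6, Nkain4, Pkhd1l1 and Wt1, of which 3 are rule genes, and every member lay below every other cell for none (0%). Genes at 100 CPM in all 7 members numbered 70 (0.696%), and most of them, such as Actb and C3, reached it in many other cells too. Genes at 100 CPM in 5 or more members numbered 329 (3.27%). Of these, 40 (0.398%) reached that level in 2 or fewer other cells, 34 of them outside the rule, and 17 of the 34 reached it in no other cell. Dab2, an endocytic adaptor, had 45.3, 90.3, 2490, 376, 371, 217 and 329 CPM. Ptgis, prostacyclin synthase, had 5.24, 482, 272, 788, 982, 0.149 and 240 CPM, and Fstl1, a secreted glycoprotein, had 14.2, 805, 0.835, 423, 201, 384 and 367 CPM. Efna5, an ephrin, reached 100 CPM in 6 members and 2 other cells. These 4 were picked after their values were seen.

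Genes of the actin cortex and of antigen presentation were high in most members. Of 33 actin genes 17 were higher and none lower, with a median difference of 2.41, and the number at 100 CPM was 20, 24, 24, 25, 28, 8 and 18, against a median of 10 in the other cells. Ptrf, a coat protein of caveolae, had 1342, 924, 2685, 1160, 388, 11.5 and 2939 CPM. Anxa1, a membrane-binding annexin, had 940, 1675, 1263, 92.0, 1651, 71.8 and 1644 CPM, and Ezr, which ties actin to the membrane of epithelia, had 424, 260, 1781, 1508, 433, 22.5 and 630 CPM. Cell 35 was the lowest member for all 3. Of 12 antigen presentation genes 6 were higher, with a median of 1.82. Psmb8, a subunit of the immunoproteasome, had 1045, 1068, 1961, 572, 798, 104 and 518 CPM, and Tapbp, which loads peptides, had 3174, 763, 5337, 617, 853, 211 and 902 CPM. They also reached 100 CPM in 9 and 10 other cells. Within cells 33 to 37 the medians of both lists were negative. There 8 actin genes were higher and 11 lower (median -0.38), and 4 antigen presentation genes were higher and 3 lower (median -0.48). Of all genes, 14.7% were higher and 19% lower there, and the median of the broadly expressed genes defined above was -0.51. Neither list median was thus further down than that of broadly expressed genes. The part of this general shift in either list was not tested. Against the 4 leukocyte-marker cells only 1 antigen presentation gene was higher. Among 22 immediate early genes 6 were higher, led by Klf4, a transcription factor, with 139, 399, 1004, 330, 911, 1030 and 213 CPM. The direction of that list depended on the cells compared. Against the 6 hepatocyte-marker cells 20 genes were higher, beside 16.2% of all genes. Against the 22 duct-marker cells 3 were higher and 4 lower (median -0.81), beside 12.7% and 2.96% of all genes. Within cells 5 to 13, 5 were higher and 7 lower (median -0.77), beside 18.1% and 9.65%.

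The remaining genes near 0 in the members and high elsewhere were of several kinds. Hbegf, a ligand of the epidermal growth factor receptor, had at most 0.642 CPM in a member and reached 100 CPM in 16 other cells, a difference of -5.23. Scp2, a carrier of sterols, had at most 10.1 CPM and a difference of -5.03. Pigr, which carries antibodies across epithelium, had at most 17.9 CPM and a difference of -4.07. Id2, an inhibitor of transcription factors, was the exception in cell 37, at 832 CPM, with under 3 CPM in the 6 other members. Clu, encoding the chaperone clusterin, had 170, 5.32, 372, 53.5, 57.8, 141 and 7137 CPM, a difference of -4.27, and 28 other cells reached 100 CPM. Cell 37 thus departed from the other members in Trf, Hp, Id2 and Clu together.

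**Figure D3:**
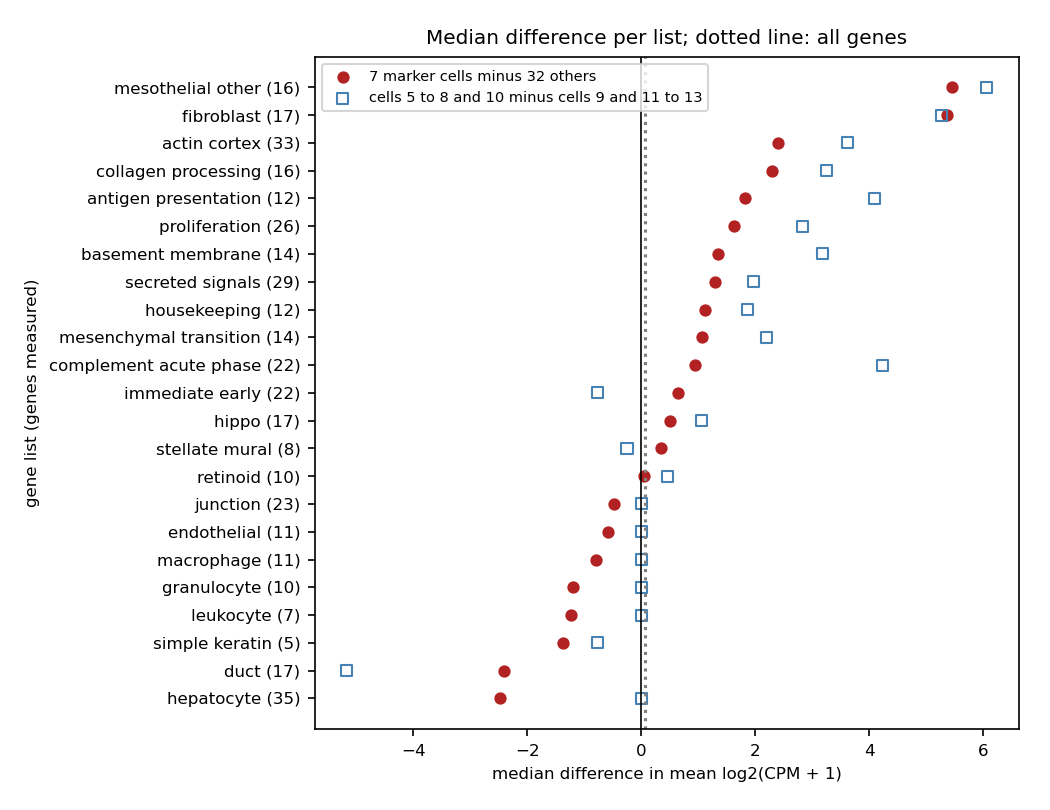
Median difference in mean log2(CPM + 1) for 23 gene lists, with the number of measured genes in brackets, for the 7 members against the 32 other cells (filled) and for cells 5 to 8 and 10 against cells 9 and 11 to 13 (open squares). The other mesothelial and fibroblast lists lie at 5.45 and 5.36 in the filled series and at 6.06 and 5.27 in the open one, and the duct list at -2.40 and -5.16.

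Genes of signalling pathways reached 100 CPM in varying numbers of members. Of 29 secreted signals 8 were higher (27.6%, beside 11.4% of all genes) and 1, Igf1, was lower, with a median difference of 1.29. Ccl2 and Ccl7, chemokines that attract monocytes, had 2105 and 2569 CPM in cell 7 and were listed at 0 in cells 5, 35 and 37. Ccl2 also reached 100 CPM in 7 duct-marker cells. Fgf1, a fibroblast growth factor, had 1836 CPM in cell 37 and at most 44.2 CPM in the other members. Sfrp2, a secreted Wnt antagonist, reached 100 CPM in cells 6 and 8 and had at most 1.35 CPM in the 32 other cells. Of 17 Hippo pathway genes 4 were higher (23.5%) and 2 lower (11.8%), beside 11.4% and 2.54% of all genes. The list's median difference was 0.50. Axl, a receptor kinase, had 457, 99.4, 0.142, 779, 1786, 417 and 1023 CPM, and Tead1, a partner of YAP, was higher by 3.81. Cyr61 and Ankrd1, targets of the pathway in many cells, had at most 30.9 CPM and 0 CPM, against 15 and 5 duct-marker cells at 100 CPM, although the difference of Cyr61 turned from -3.11 to 2.60 within cells 5 to 13. Genes of the same pathway thus lay on both sides. In the retinoid list Aldh1a1, Aldh1a2 and Rdh10, enzymes of retinoic acid synthesis, were higher and the plasma carrier Rbp4 was listed at 0 in all 7, with a median difference of 0.05 over 10 genes.

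Proliferation genes marked cells 6, 8 and 10. Of 26 measured, 8 were higher (30.8%, beside 11.4% of all genes), and the number at 100 CPM was 2, 12, 0, 11, 15, 1 and 1. Mki67 had 0.323, 1768, 0.525, 989, 486, 1.79 and 0.320 CPM and Top2a, the topoisomerase of dividing cells, 0.194, 1148, 0.525, 1103, 243, 0.149 and 0.160 CPM. At least 3 such genes reached 100 CPM in 3 of 7 members (exact 95% interval 9.90% to 81.6%) and 4 of 32 others (3.51% to 29.0%). The 3 cells held different parts of the list. Cell 8 had the replication genes Mcm2, Mcm4, Mcm6, Pcna and Rrm1 at 264, 550, 1239, 1175 and 2235 CPM and Cenpf, Plk1 and Aurka, genes of mitosis, at 0 CPM. Cell 6 had Cenpf, Plk1 and Aurka at 2210, 337 and 443 CPM and Mcm2 and Rrm1 at 0 CPM. Cell 10 had genes of both kinds, with Mcm6 at 847 CPM and Cenpf at 627 CPM. Within cells 33 to 37, 13 of the 26 genes were lower in the members (median -1.96), beside 19% of all genes. The other 3 cells there held 2 leukocyte-marker cells, and the median of broadly expressed genes was -0.51. Cells 6, 8 and 10 were also the 3 members with the most genes at 100 CPM and the highest estimates of reads per CPM. The part of that breadth or depth in the counts was not tested. No call of a cycling state was made.

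The members were also compared by their numbers. In cells 5 to 8 and 10, set against cells 35 and 37, 2013 genes were higher (20%) and 1116 lower (11.1%), and the genes named here were picked for this division. The likeness of cells 35 and 37 depended on low values. With all values cell 35 was the nearest cell of cell 37, at a Spearman correlation across genes of 0.423. With values under 10 CPM set to 0 the pair was at 0.189, and cell 37 was at 0.271 to 0.296 with each of the 5 others. Cell 35 was then at 0.170 to 0.203 with those 5. Tm4sf1, a tetraspanin-like surface protein of mesothelium and endothelium, had 5078, 589, 2529, 1322, 2122, 0.745 and 0.240 CPM. Fkbp3, a nuclear isomerase, and Cald1, encoding caldesmon, reached 100 CPM in all 5 and in neither of cells 35 and 37. In the other direction Gsn, encoding the actin-severing protein gelsolin, had 3433 CPM in cell 35 and 6615 CPM in cell 37 and was listed at 0 in the 5 others. Hpgd, which degrades prostaglandins, had 885 and 2124 CPM in cells 35 and 37 and was likewise listed at 0. Stmn2, a regulator of microtubules known from neurons, had 931 CPM in cell 35, 1831 CPM in cell 37 and 1443 CPM in cell 5. The median over 5 simple keratins was 6.60 higher in cells 5 to 8 and 10, and the fibroblast list 0.64 higher. Cell number and membership of these subsets cannot be told apart, because the labels give the numbers no meaning.

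**Figure D4:**
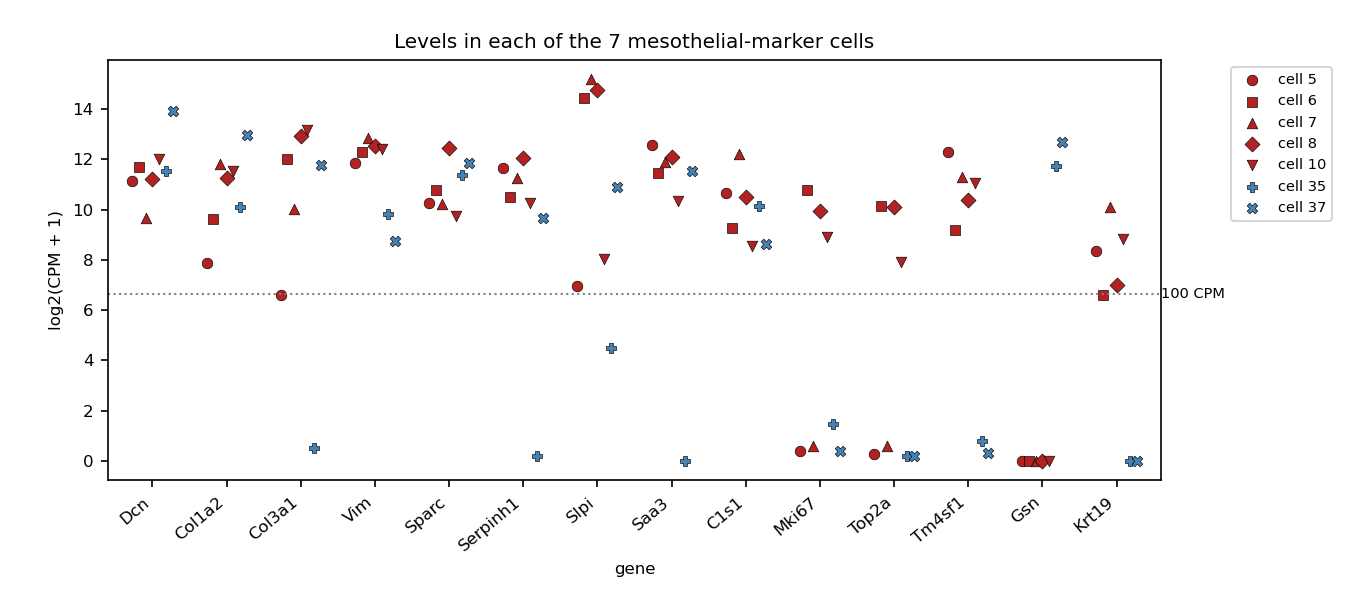
Levels, as log2(CPM + 1), of 14 genes in each of the 7 mesothelial-marker cells, red for cells 5 to 10 and blue for cells 35 and 37, with the dotted line at 100 CPM. Dcn and Col1a2 lie above the line in all 7 cells, Tm4sf1 in the red ones only and Gsn in the blue ones only.

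The 32 other cells were of several kinds, and the differences were not alike against each. They fell into 22 duct-marker, 6 hepatocyte-marker and 4 leukocyte-marker cells, named for the listed genes they held at 100 CPM. Against the duct-marker cells 12.7% of all genes were higher and 2.96% lower, and 15 of 16 other mesothelial genes, 13 of 17 fibroblast genes and 11 of 22 complement and acute phase genes were higher, while 11 of 17 duct genes were lower. Against the hepatocyte-marker cells, with 16.2% of genes higher and 11.5% lower, 12 of the 22 complement and acute phase genes were lower and 8 higher. Against the leukocyte-marker cells, with 12.2% higher and 14.3% lower, 6 of 26 proliferation genes were lower and 1 was higher. The fibroblast list had 13 genes higher against the hepatocyte-marker cells too, and 14 against the leukocyte-marker cells. The upward displacement of mesothelial and fibroblast genes was thus seen against each set, and that of complement and proliferation genes was not.

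Neighbouring cell numbers allowed a closer comparison. Within cells 5 to 13 the 5 members were set against cells 9, 11, 12 and 13, all duct-marker cells, and 18.1% of genes were higher and 9.65% lower. Of the 16 other mesothelial genes 15 were higher (median 6.06) and of the 17 fibroblast genes 14 (median 5.27). Dcn was higher by 9.60, Col1a2 by 8.88 and Saa3 by 10.73. Of the duct genes 12 of 17 were lower (median -5.16), while the hepatocyte list had a median of 0. The comparison reversed for Apoe, at 2.92 higher, and for Krt19, at 0.76 lower. Within cells 33 to 37, cells 35 and 37 were set against cells 33, 34 and 36, with 14.7% of genes higher and 19% lower. There the fibroblast list had 12 of 17 higher, with a median of 4.31.

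The members resembled each other more than they resembled other cells, by an amount that depended on low values. Over 10053 genes, without the rule genes, the Spearman correlation was 0.337 in median over the 21 pairs of members and 0.248 over the 224 pairs of a member with another cell. With all values the nearest cell of cell 10 was cell 11 (0.454) and of cell 35 was cell 34 (0.449), both duct-marker cells. Cell 9 was close to cells 7 and 8, at 0.495 and 0.485. With values under 10 CPM set to 0, the 5 nearest cells of every member were members, and the medians were 0.288 and 0.174. The points share libraries, and gene choice and depth enter both, so these are descriptions across genes.

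Low values were in part shared along the cell numbers. In cell 9 all 8 rule genes were above 0, none above 3.17 CPM, while the median of the 32 other cells was 1 gene. Of 13 genes at 1000 CPM or more in cell 8 and under 100 CPM in every other cell, all 13 were above 0 in cells 7 and 9, beside a median of 4 over cells. Of 8 such genes of cell 35, all 8 were above 0 in cells 33 and 34, beside a median of 2. The sharing was not limited to near numbers. Of the 13 genes of cell 8, 10 were above 0 in cell 38, and 7 in each of cells 6 and 10. Of 6 such genes of cell 37, all 6 were above 0 in cell 33, 4 in cell 36 and 5 in cell 18. Values of a few CPM in neighbouring numbers are therefore no evidence of expression by themselves. They do enter some results above, such as the count of genes with every member above every other cell. Whether reads were exchanged among those libraries was not tested.

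**Figure D5:**
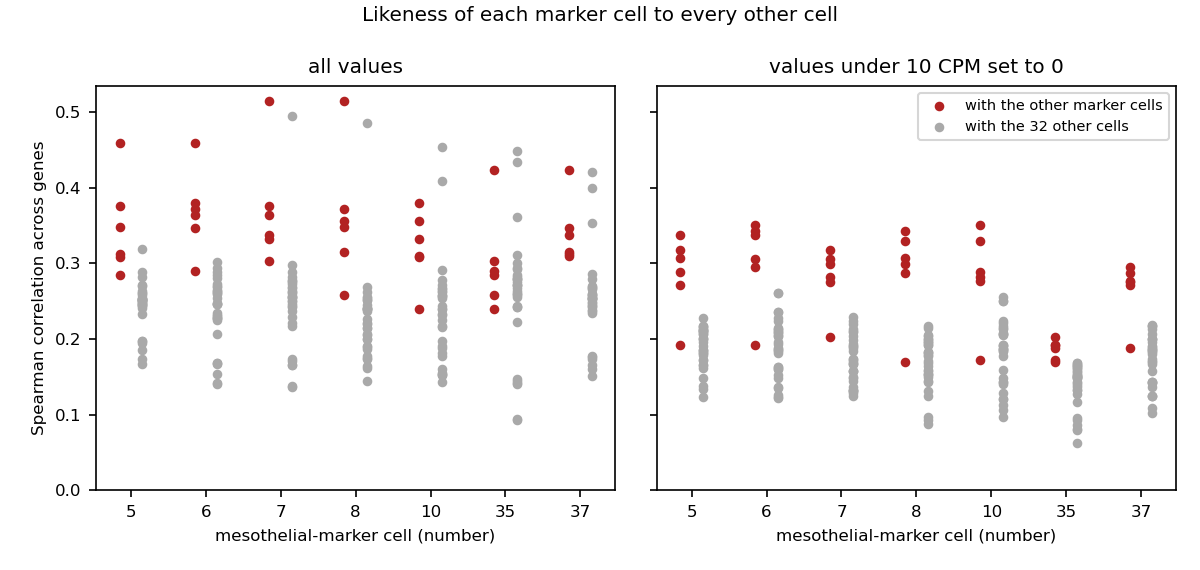
Spearman correlation across 10053 genes of each mesothelial-marker cell with the 6 other members (red) and the 32 other cells (grey), for all values at the left and with values under 10 CPM set to 0 at the right. At the right the 5 highest points of every column are red, and at the left cells 10 and 35 have a grey point at the top.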

How the data were processed

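The deposited table held log2 values for 13568 RefSeq transcripts in 39 cells. Bowtie 0.12.9, eXpress 1.5.1, edgeR and mm9 are listed per the submitters' processing notes, without order or settings. The scale was inferred from the values: the lowest, -2.58, was shared by all cells, and its linear value of 0.167 was subtracted from 2 raised to each value to give CPM. Cells differed in the sum of their linear values, from 351255 to 3128332, so a further factor per cell remains. It enters every comparison between cells made at a fixed CPM. Rescaling each cell to its total without Rn45s, Lars2 and Rorb was an alternative. Rn45s made up 12.0% to 21.4% of the sum in the members and 8.42% to 31.2% in the duct-marker cells. In the hepatocyte-marker cells it made up 0.383% to 1.22%, and in the leukocyte-marker cells 12.8% to 21.6%. Levels are not compared between genes, because CPM is not per length. Transcripts of a symbol were summed (10061 symbols). The fixed plan assumed linear values, and it was applied to the back-transformed ones.

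Differences are of mean log2(CPM + 1), member cells minus others, called at 2. The pseudocount of 1 shrinks differences of low genes. No count model or test was fitted. A 0 is given as listed at 0, because broadly used genes such as Hprt were also listed at 0. Intervals cover counting error only, and without molecular identifiers reads may be copies of 1 molecule.

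The members, lists and rules were chosen with earlier results of these data known. Named genes were the rule genes, the 20 leading higher and 15 leading lower genes, genes without overlap, list genes at 100 CPM in 3 or more members, markers of other cells, Krt19 and the 10 genes with the largest difference on each side between cells 5 to 10 and cells 35 and 37. Others were named after their values were seen. Hepatocyte-marker cells had 20 or more hepatocyte genes at 100 CPM, leukocyte-marker cells 10 or more leukocyte, granulocyte and macrophage genes, and duct-marker cells 3 or more duct genes, giving 6, 4 and 22 cells. The first pair of cutoffs was raised from 10 and 2 after seeing the data, because those gave 10, 8 and 14 cells. Python 3.11.15, numpy 2.4.6, pandas 2.3.3 and scipy 1.17.1 were used.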

Additional observations from a re-analysis of the deposited data

How the results depend on the processing

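The main counts were 1142 genes higher and 256 lower. A pseudocount of 0.1 gave 1930 higher and 766 lower, and one of 10 gave 402 and 57. Within cells 5 to 13 the counts were 1826 and 971, and within cells 33 to 37, a comparison of 2 with 3 cells added after seeing the data, 1907 genes were lower. The share of called genes that were higher was 81.7%, and it was 71.6% with a pseudocount of 0.1, 65.3% within cells 5 to 13 and 43.6% within cells 33 to 37. The median of all genes shifted to 0.19 with a pseudocount of 0.1. Rescaling each cell gave 1145 higher and 295 lower. Leaving out each member in turn gave 1103 to 1418 higher and 259 to 316 lower. Other alternatives, such as the highest transcript, a filter on low genes or 4 rule genes, left both counts within 1.5 times. The rule took 6 cells at 200 CPM or with 4 genes and 8 with 2 genes. Of 3294 values of 165 named genes, 33 changed sign from a main difference of 2 or more in size. Sign changes of smaller main differences were not counted. A further 472 values moved by more than the spread between members. Within cells 5 to 13 the sign changes so counted were those of Apoe (2.92), Cyr61 (2.60), Fn1 (2.66), Hpgd (-2.34), Krt19 (-0.76), Saa1 (0.0069) and Sox9 (1.05). Against the 14 duct-marker cells of the first cutoffs alone, before these were raised, Hp came to 0.52 and Saa1 to 0.021. Saa1 kept 0.021 without the hepatocyte-marker cells of those first cutoffs, and with the stricter cell sets used above. Within cells 33 to 37 the higher genes that changed sign were Arhgdib (-2.97), Cenpf (-1.85), Ezr (-1.40), Fkbp3 (-2.60), Hprt (-3.38), Krt19 (-0.15), Lgals1 (-0.020), Loxl2 (-0.074), Mcm6 (-3.36), Mki67 (-6.15), Msln (-0.10), Rrm1 (-2.88), Timp1 (-3.07), Timp3 (-0.47), Tm4sf1 (-3.57) and Top2a (-3.35). The lower genes that changed sign there were Clu (3.97), Fn1 (1.88), Hp (2.23), Id2 (0.15) and Saa1 (0.056). The cause was not tested. The number of cells limits every share, and the depth in reads was only roughly estimated. No paired analysis was possible because all cells belong to 1 group.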
